A study of Mus musculus with 12 samples.

Results

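The YAP and TGF-beta response genes examined here were 10 genes chosen by name: Ctgf, Cyr61, Ankrd1 and Amotl2, which are targets of YAP, the coactivator gene Yap1 itself, the TGF-beta ligand Tgfb1, the receptors Tgfbr1 and Tgfbr2, and the pathway inhibitors Tgif1 and Smad7. They and the pathway lists were chosen with earlier results of these data known, so the shares of them called below are descriptions beside those of all genes. All 10 were among the 23420 genes of the count table, where Ctgf and Cyr61 carry these older symbols (Ccn2 and Ccn1 in current use). All 10 also passed the filter on low counts, which 11664 genes passed.

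RNA from 12 kidneys of male C57BL/6J mice was sequenced (the parts of each kidney left after a piece was taken for histology), in 3 groups of 4 kidneys. The control kidneys were, by the study's methods, normal kidneys taken at nephrectomy, whereas the text of the study also speaks of sham surgery and the treatment field of the labels repeats the 20 min clamping of the renal pedicle and the collection 24 h later for every sample, controls included. What surgery and delay the sequenced controls had is therefore uncertain. The 8 ischemic kidneys were collected 24 h after a 20 min ischemia performed either in conscious or in anaesthetised mice, and for these the sample titles and the group field contradict each other. They were therefore kept as 2 sets of 4, ischemia set A with the kidneys that the titles call anaesthetised and the group field conscious, and ischemia set B with those labelled the other way round, and no difference between the sets can be assigned to consciousness or to anaesthesia. The mice were young adults by the study's methods. Whether a control and an ischemic kidney came from one animal is not given in the labels. The main tests treat the kidneys as independent, so such a pairing, if present, is not taken into account. Their p-values set group differences against the spread between these kidneys.

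The kidneys had between 15367342 and 44793350 counted reads, and levels are given as CPM, a gene's counts scaled to a common library size, after TMM scaling, a correction for library composition. A count of 3 in a kidney corresponds to between 0.0661 and 0.19 CPM. The controls stood apart from all 8 ischemic kidneys on the first principal component of the whole transcriptome (26.5% of the variance), and ischemia set B replicate 4 stood apart from the other 11 on the second (12.2%), so the set B values of the 10 genes were also computed without that kidney. For the genes that did not pass in set B, the log2 fold change without it was 1.08 for Ankrd1, 0.24 for Amotl2, 0.22 for Yap1, 0.20 for Tgfb1 and -0.30 for Smad7. The number of pathway genes that passed in set B, described further on, was 32 with and without it. Values of single pathway and marker genes are given for all 12 kidneys. As a check of the tissue, the summed level of 5 proximal tubule markers was 6500 to 7260 CPM in the controls, and 678 to 1250 CPM and 395 to 1290 CPM in sets A and B, and all 5 markers were lower in both ischemic sets. In RNA from bulk kidney tissue, fewer cells of a type and less RNA per cell cannot be told apart.

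YAP is a transcriptional coactivator that the Hippo kinases hold in the cytoplasm. When it enters the nucleus it binds DNA through the TEAD factors and switches on genes for matrix-associated proteins and for its own inhibitors. TGF-beta binds a complex of its type II and type I receptors, which phosphorylate SMAD2 and SMAD3, and the pathway is best known in the kidney for its part in fibrosis after injury. The pathways meet at shared target genes, Ctgf being the best known of them.

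The start-proximal sequence of the YAP-related members is shown here because TEAD motifs are the known route from YAP to its targets. Promoters were read from RefSeq sequences on build GRCm38 (mm10), 250 bases before each annotated start, and 8 of the 10 members had an entry (13 entries in all). Ctgf and Smad7 had none. The letters GGAATG, the core of the TEAD motif, were searched on both strands and were found in 4 members, Cyr61, Ankrd1, Amotl2 and Yap1, against 12.6% of 32851 promoter windows of the same length. Here and for the other letters, a member was counted if any of its entries matched, whereas the shares are of single windows. In the 4 sequences, written 5′ to 3′ on the strand of the gene, capitals mark GGAATG or its reverse complement CATTCC. The windows are chr3:145649986-145650235 (minus strand) for Cyr61, chr19:36119845-36120094 (minus strand) for Ankrd1, chr9:102717554-102717803 (plus strand) for Amotl2 and chr9:8004597-8004846 (minus strand) for Yap1.
Cyr61: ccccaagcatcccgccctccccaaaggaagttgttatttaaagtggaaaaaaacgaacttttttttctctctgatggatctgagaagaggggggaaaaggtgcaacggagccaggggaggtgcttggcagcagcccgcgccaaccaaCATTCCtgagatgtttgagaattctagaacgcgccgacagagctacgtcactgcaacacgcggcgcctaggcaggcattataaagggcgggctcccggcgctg
Ankrd1: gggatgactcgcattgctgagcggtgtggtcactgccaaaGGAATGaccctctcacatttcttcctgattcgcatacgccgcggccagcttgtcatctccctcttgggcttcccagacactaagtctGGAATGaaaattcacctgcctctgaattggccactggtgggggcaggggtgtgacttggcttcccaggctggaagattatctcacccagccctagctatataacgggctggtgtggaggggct
Amotl2: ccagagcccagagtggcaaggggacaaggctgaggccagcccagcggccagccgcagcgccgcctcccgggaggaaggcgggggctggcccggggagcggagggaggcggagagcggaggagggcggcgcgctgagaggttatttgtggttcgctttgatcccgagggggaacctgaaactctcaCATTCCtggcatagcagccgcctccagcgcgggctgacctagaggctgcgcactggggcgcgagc
Yap1: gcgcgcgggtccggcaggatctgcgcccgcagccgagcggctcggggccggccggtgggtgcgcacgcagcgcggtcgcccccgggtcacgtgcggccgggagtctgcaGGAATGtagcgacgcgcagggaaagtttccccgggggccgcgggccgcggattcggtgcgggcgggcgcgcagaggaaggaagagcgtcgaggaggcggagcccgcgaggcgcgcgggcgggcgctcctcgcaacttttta

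The TEAD letters began 103 bases before the start in Cyr61, 65 in Amotl2, 141 in Yap1, and 210 and 123 in Ankrd1. These starts are those of the promoter entries. By the gene loci given below, the windows of Amotl2 and Ankrd1 lie inside the gene, and those of Cyr61 and Yap1 before it. At least 2 matches, as in Ankrd1, were found in 1.02% of all windows. Cyr61 also held the TATA box letters TATAAA, 25 bases before its start, which 12.4% of windows held. The SMAD letters CAGAC were found on either strand in 5 members (Ankrd1, Yap1, Tgfbr1, Tgfbr2 and Tgif1), but 42.2% of all windows held them, and in Ankrd1 one of the matches shared a base with the TEAD letters. The AP-1 letters TGANTCA, present in 6.75% of windows, were found in none of the 13 entries. A match describes the letters of a window and is not evidence that a factor was bound there.

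The YAP target genes Ctgf and Cyr61 were higher in both ischemic sets, Cyr61 by 5.76-fold and 4.32-fold. Both encode secreted matricellular proteins of the CCN family. Of the receptors and inhibitors of TGF-beta, Tgfbr1, Tgfbr2 and Tgif1 were also higher in both sets. Ankrd1, Yap1, Tgfb1 and Smad7 did not pass the test in either, and Amotl2 passed in set A but not in set B.

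In set A against control, 6 of the 10 genes were higher and 0 were lower by edgeR (adjusted p below 0.05), with a median log2 fold change of 1.15. Over all genes tested, 22.3% passed in either direction and 10.5% were higher, and the median was -0.02. In set B against control, 5 of the 10 were higher and 0 were lower, with a median of 0.98, against 22.8% of all genes in either direction, 10.9% higher and a median of -0.02. The count of 5 in set B was the same without replicate 4 of that set. The comparisons share their control kidneys, so the second is not independent of the first.

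**Figure D1:**
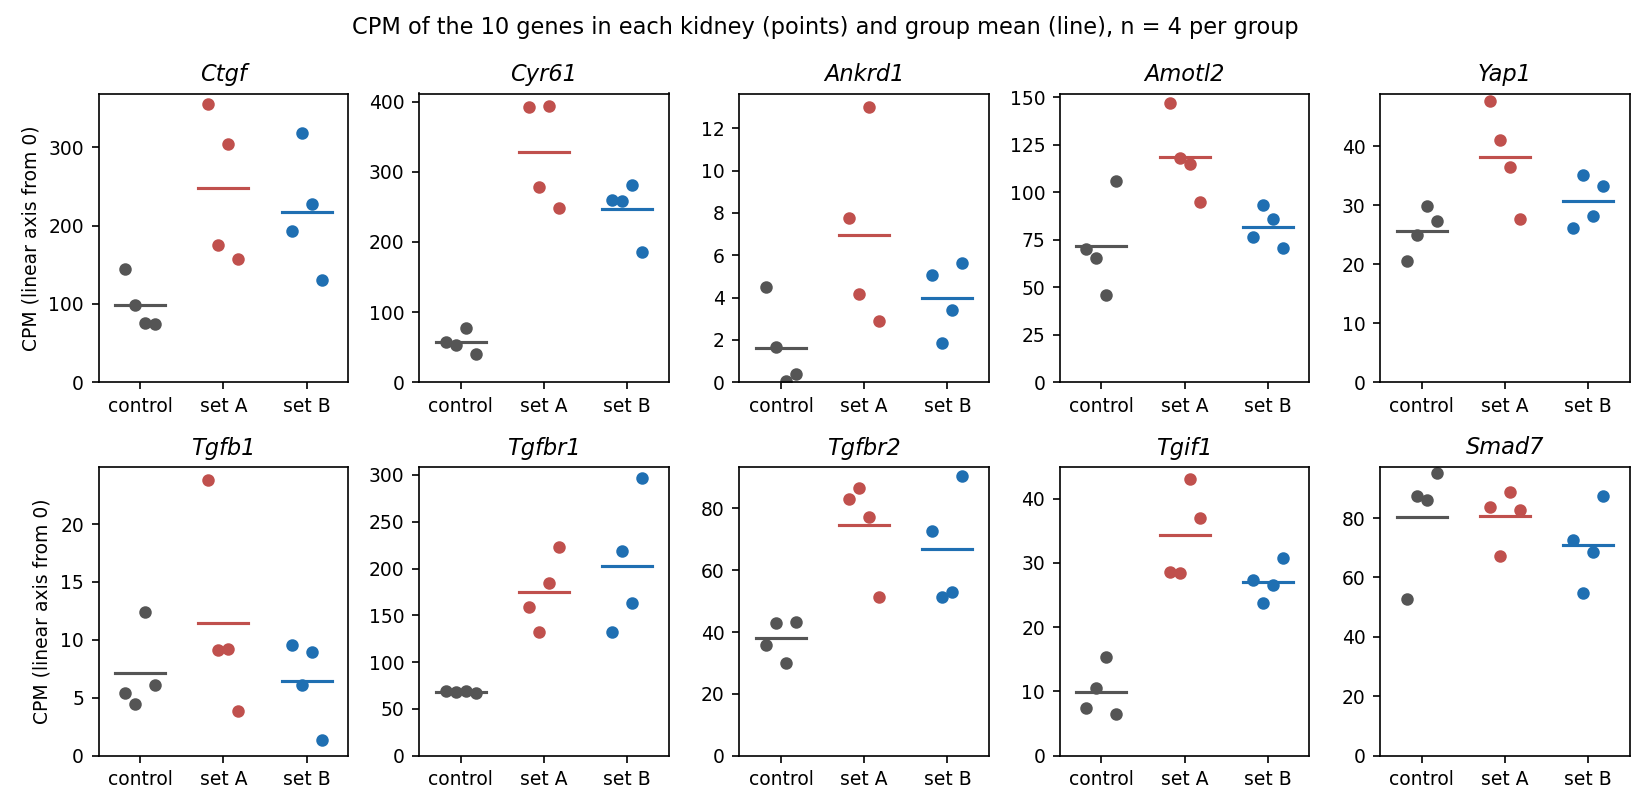
CPM (vertical axes, linear, from 0) of each of the 10 genes in each of the 12 kidneys (points), by group, with the group mean as a line and n = 4 per group. All 8 ischemic kidneys lay above all 4 controls for Cyr61, Tgfbr1, Tgfbr2 and Tgif1. Both ischemic sets overlapped the controls for Ankrd1, Amotl2, Yap1, Tgfb1 and Smad7, and set B alone did for Ctgf.

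Cyr61 (chr3:145646976-145649981, minus strand, mm10) encodes a secreted protein that binds integrins. Its level was 57.5, 53.6, 77.3 and 39.9 CPM in the controls, 392, 278, 394 and 249 CPM in set A, and 260, 259, 281 and 186 CPM in set B. The lowest ischemic kidney lay above the highest control by more than the whole spread of the controls. Set A was 5.76-fold above control (log2 fold change 2.53, SE 0.21, edgeR adjusted p = 2.17e-08) and set B 4.32-fold (2.11, SE 0.20, edgeR adjusted p = 1.97e-07), or 2.22 on the log2 scale without replicate 4 of set B.

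Ctgf (chr10:24595442-24598683, plus strand) encodes connective tissue growth factor. The 4 controls had 145, 98.8, 75.3 and 74.7 CPM, set A had 355, 175, 304 and 158 CPM, and set B had 193, 318, 228 and 131 CPM. All of set A lay above the controls, but set B overlapped them, since its replicate 4 was below control replicate 1. The log2 fold change was 1.34 in set A (SE 0.28, edgeR adjusted p = 0.00136) and 1.15 in set B (SE 0.28, edgeR adjusted p = 0.00473), and 1.33 in set B without replicate 4. A processed transcript, Gm15270, lies over exons of Ctgf on the opposite strand and has no row of its own in the table. Whether the counting used strand is not given in the sources used here, so reads of the 2 genes may be pooled.

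Ankrd1 (chr19:36111961-36120099, minus strand), which encodes an ankyrin repeat protein of muscle and stressed cells, was low and widely scattered. It stood at 4.51, 1.64, 0.0386 and 0.366 CPM in the controls, from 1 to 94 counts, at 7.75, 4.19, 13.0 and 2.89 CPM in set A, and at 5.09, 1.83, 3.39 and 5.65 CPM in set B. The group means of 1.64 ± 2.03 (SD), 6.97 ± 4.54 and 3.99 ± 1.73 CPM (n = 4 each) were ordered like those of Cyr61, but control replicate 1 overlapped both ischemic sets. The log2 fold change had wide intervals, 2.10 with a 95% interval of 0.01 to 4.18 in set A (edgeR adjusted p = 0.154) and 1.29 with an interval of -0.75 to 3.33 in set B (edgeR adjusted p = 0.420). Without control replicate 1, the set A value was 3.35 (edgeR adjusted p = 0.0349), and the set B value 2.53 (0.101), so leaving out that kidney changed the call in set A and the size in both. The size also depended on other kidneys, the set A value being 1.60 without set A replicate 3 and 1.69 without control replicate 3.

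Amotl2 (chr9:102716672-102733418, plus strand) encodes an angiomotin-like protein that binds YAP and restrains it. The controls had 70.1, 65.2, 45.8 and 106 CPM, set A had 147, 118, 115 and 94.7 CPM, and set B had 76.3, 93.2, 85.7 and 70.7 CPM. Control replicate 4 lay above set A replicate 4 and above the whole of set B. The log2 fold change of set A was 0.73 (SE 0.21, edgeR adjusted p = 0.0168), but the gene no longer passed when control replicate 2, control replicate 3 or set A replicate 1 was left out (adjusted p = 0.0538, 0.0607 and 0.0699). Set B did not pass, with 0.18 and a 95% interval of -0.26 to 0.62 (edgeR adjusted p = 0.645).

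Yap1 (chr9:7931999-8004596, minus strand) stood at 20.6, 24.9, 29.8 and 27.4 CPM in the controls, at 47.6, 41.1, 36.5 and 27.6 CPM in set A, and at 26.2, 35.2, 28.2 and 33.3 CPM in set B. Replicate 4 of set A was the kidney of that set within the control range. The log2 fold change was 0.57 (95% interval 0.10 to 1.05, edgeR adjusted p = 0.0826) in set A, against 0.26 (-0.22 to 0.74, edgeR adjusted p = 0.512) in set B, so neither passed. Without set A replicate 4 the former was 0.70 and passed (adjusted p = 0.0381). Gm20416, another processed transcript with no row in the table, overlaps exons of Yap1 on the opposite strand.

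Among the TGF-beta genes, the ligand gene Tgfb1 (chr7:25687002-25705077, plus strand) was low, at 5.42, 4.47, 12.4 and 6.14 CPM in the controls, 23.8, 9.16, 9.17 and 3.85 CPM in set A, and 9.53, 6.07, 8.95 and 1.33 CPM in set B. The 3 groups overlapped, with set A replicate 1 highest and set B replicate 4 lowest of all 12 kidneys. The log2 fold change was 0.69 (95% interval -0.59 to 1.98) in set A, against -0.13 (-1.42 to 1.15) in set B, with edgeR adjusted p = 0.526 and 0.931. Without set A replicate 1 the set A value was 0.06. Changes within these intervals were not detectable at this spread.

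Tgfbr1 (chr4:47353222-47414931, plus strand) encodes the type I receptor, the kinase that phosphorylates the SMADs. It was nearly constant among the controls, at 69.3, 68.0, 69.1 and 67.3 CPM, and stood at 159, 132, 184 and 223 CPM in set A, and at 132, 219, 163 and 297 CPM in set B. Every ischemic kidney was above every control, and the coefficient of variation was 1.38% for the control group but 22.2% and 35.8% for sets A and B. The fold was 2.55 in set A (log2 fold change 1.35, SE 0.21, edgeR adjusted p = 6.69e-05) and 2.96 in set B (1.57, SE 0.21, edgeR adjusted p = 1.31e-05). Replicate 4 of set B was the highest of the 8 ischemic kidneys, and without it the set B value was 1.32.

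Tgfbr2 (chr9:116084293-116175360, minus strand) encodes the type II receptor, which binds the ligand first. It measured 35.7, 42.9, 30.02 and 43.4 CPM in the controls, 83.2, 86.7, 77.1 and 51.4 CPM in set A, and 72.7, 51.5, 53.0 and 90.4 CPM in set B. Neither ischemic set overlapped the controls, while the sets overlapped each other, and 3 of the ischemic kidneys, at 51.4 to 53.0 CPM, stood close to the highest control. The log2 fold change was 0.97 in set A (SE 0.22, edgeR adjusted p = 0.00284) and 0.81 in set B (SE 0.22, edgeR adjusted p = 0.0106). It was 0.64 in set B without replicate 4 (adjusted p = 0.0403).

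Tgif1 (chr17:70844205-70853546, minus strand) encodes a homeobox repressor that binds SMAD complexes and limits their activity. The controls had 7.39, 10.6, 15.4 and 6.43 CPM, set A had 28.6, 28.5, 43.1 and 37.0 CPM, and set B had 27.3, 23.7, 26.5 and 30.7 CPM. Every ischemic kidney lay above every control, as for both receptor genes. It was 3.45-fold above control in set A (log2 fold change 1.79, SE 0.30, edgeR adjusted p = 1.38e-04) and 2.72-fold in set B (1.44, SE 0.29, edgeR adjusted p = 0.00103), and without replicate 4 the set B log2 fold change of Tgif1 was 1.38.

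Smad7 (chr18:75367529-75395935, plus strand) encodes the inhibitory SMAD that TGF-beta itself induces. Its level was 52.9, 87.3, 86.1 and 95.1 CPM in the controls, 83.7, 67.3, 88.7 and 82.7 CPM in set A, and 72.6, 54.7, 68.7 and 87.3 CPM in set B. Both ischemic sets lay within the control range. The log2 fold change was 0.00 in set A (95% interval -0.40 to 0.41, edgeR adjusted p = 0.993) and -0.18 in set B (-0.59 to 0.22, edgeR adjusted p = 0.607), and its sign in set A changed with the kidneys left out.

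Each gene was also compared on its CPM alone with two-sided exact permutation tests of 4 kidneys against 4, in which the smallest possible p is 0.0286, without adjustment, so that no gene was called on this p alone. That smallest exact p was reached in set A by Ctgf, Cyr61, Tgfbr1, Tgfbr2 and Tgif1, and in set B by Cyr61, Tgfbr1, Tgfbr2 and Tgif1. These are the genes whose CPM did not overlap the controls, 5 of 10 for set A and 4 of 10 for set B. Of all genes tested, 28.2% had no overlap with the controls for set A and 26.7% for set B, in either direction. For Ctgf in set B and for Amotl2 and Yap1 in set A the exact permutation test gave p = 0.0571.

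**Figure D2:**
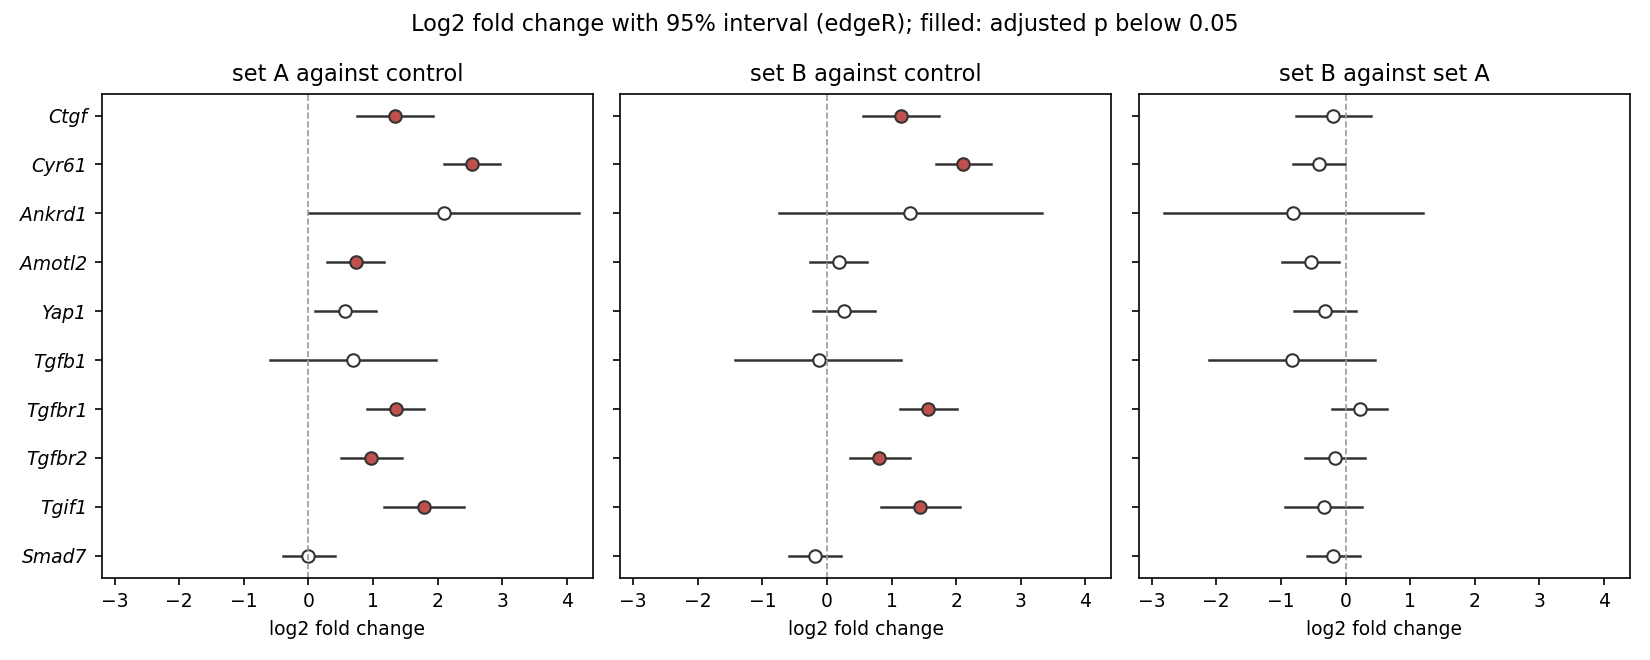
Log2 fold change of each of the 10 genes (points) with its 95% interval (lines) by edgeR for each ischemic set against the controls (left and middle) and for the sets against each other (right, set B relative to set A), on one common horizontal axis, with filled points for adjusted p below 0.05. Set A has 6 filled points and set B 5, all to the right of 0, and the comparison of the sets has none.

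None of the 10 genes passed the test between set B and set A by edgeR, where the smallest adjusted p was 0.936. At an unadjusted p below 0.05 there were 2 (Amotl2 and Cyr61) by edgeR, 2 by DESeq2 and 1 by limma-trend, where 587 of the 11664 genes had one by edgeR, and these tools also called 0 of the 10 after adjustment. Without set A replicate 1 there were 0 at an unadjusted p below 0.05 by edgeR. Over all genes tested, 0.00857% passed by edgeR, which was 1 gene, against 27 genes by DESeq2 and 0 by limma-trend. Of the 10 log2 fold changes, 9 were below 0 (median -0.33, against -0.01 over all genes, of which 49.2% were above 0). Tgfbr1 was the exception at 0.22, which was -0.03 without set B replicate 4. The 10 values come from the same 8 kidneys and are not independent of each other. Amotl2 did not overlap between the sets, its 4 values in set B being lower than the 4 in set A (log2 fold change -0.54, 95% interval -0.99 to -0.10, exact permutation p = 0.0286), and 2.61% of all genes tested did not overlap. For Cyr61 the log2 fold change was -0.41 (-0.82 to -0.01), with overlapping CPM. The intervals of the other 8 genes included 0, running from -0.60 to 0.22 for Smad7 and from -0.21 to 0.65 for Tgfbr1, and being widest for Ankrd1, whose lower bound was -2.81.

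The 8 ischemic kidneys did not keep one order over the genes. Set A replicate 1 and set A replicate 3 were each the highest kidney for 4 of the 10 genes, and set B replicate 4 was the highest for the other 2, which were the receptor genes Tgfbr1 and Tgfbr2. The same kidney was the lowest of the 8 for 4 genes, namely Ctgf, Cyr61, Amotl2 and Tgfb1. The median rank over the 10 genes, counted from the highest, ran from 2 in set A replicate 1 to 7 in set A replicate 4.

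Levels were compared between genes per kilobase of exon, on the exon lengths of the mm10 annotation. In the controls Ctgf (34.4 ± 11.5 CPM per kb, SD, n = 4) and Cyr61 (28.3 ± 7.65) headed the order and overlapped, followed by Smad7 (17.8 ± 4.14), Amotl2 (11.4 ± 3.99) and Tgfbr1 (10.5 ± 0.144), each overlapping its neighbour. Tgfbr2 stood alone at 4.64 ± 0.779 CPM per kb, without overlap on either side. Yap1, Tgif1, Tgfb1 and Ankrd1 closed the order, from 2.77 ± 0.425 down to 0.568 ± 0.705 CPM per kb, neighbours again overlapping.

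After ischemia Cyr61 came first, at 163 ± 37.5 and 122 ± 20.6 CPM per kb in sets A and B, overlapping Ctgf at 86.7 ± 33.8 and 76.0 ± 27.3. Tgfbr1 moved above Smad7 on its mean in both sets, at 26.7 ± 5.92 and 31.0 ± 11.1 CPM per kb against 17.8 ± 2.05 and 15.7 ± 2.97. The ranges of these 2 genes did not overlap in either set, nor in the controls, where Smad7 was the higher one. Tgif1 passed Yap1, which it did not overlap in set B (4.81 ± 0.512 against 3.32 ± 0.456 CPM per kb). Tgfb1 closed the order in both sets, beside Ankrd1.

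**Figure D3:**
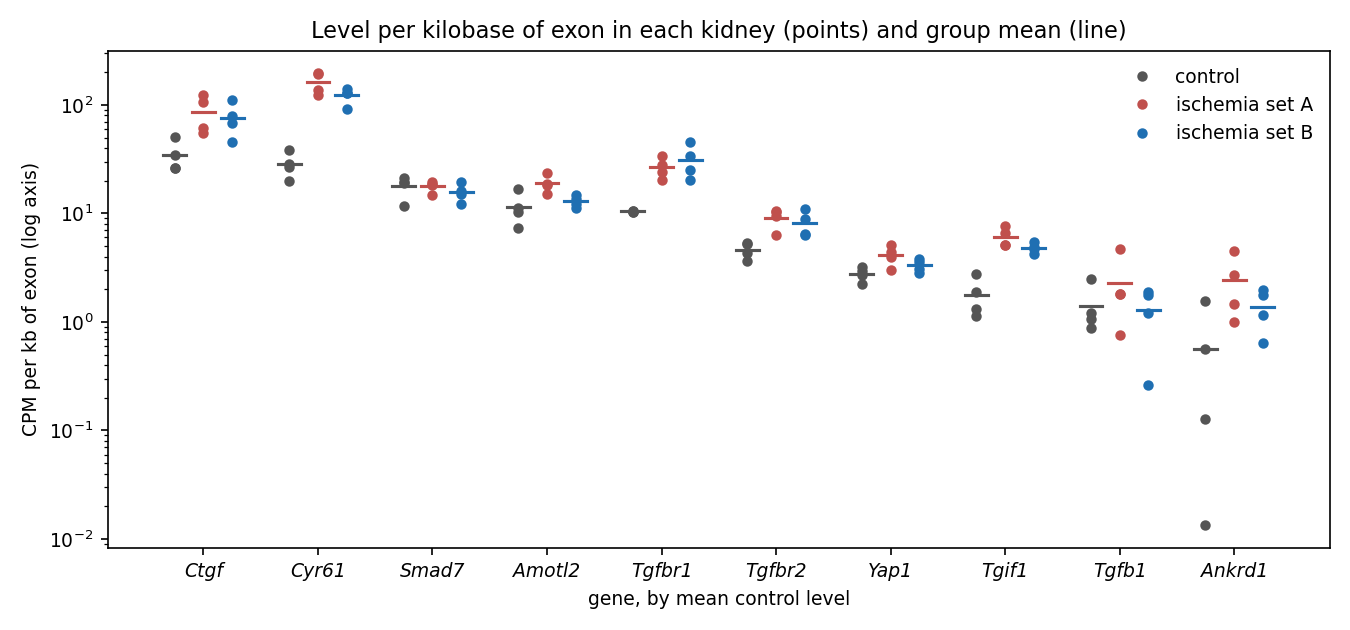
Level per kilobase of exon (CPM per kb, vertical log axis) of the 10 genes in each kidney (points) with the group mean (line), n = 4 per group, ordered by the control mean. Cyr61 lies highest after ischemia, at 163 CPM per kb on average in set A, and the controls of Ankrd1 are the most widely scattered.

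The other genes of the pathways were followed in 5 lists of 91 distinct genes, of which 83 were tested. In set A 27 were higher and 5 lower, and in set B 26 were higher and 6 lower, so that 38.6% were called in each by edgeR, against 22.3% and 22.8% of all genes. Their median log2 fold change was 0.34 and 0.29 in sets A and B. Comparing the sets with each other, 0 of the 83 passed by edgeR, DESeq2 or limma-trend, and 6 had an unadjusted p below 0.05 by edgeR, beside the 587 of all 11664 genes.

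Of the other YAP and TEAD target genes, 17 of 20 were tested, 6 were higher and 2 lower in each set, and the median log2 fold change was 0.31 and 0.25 in sets A and B. The share called was 47.1% in each set, beside 22.3% and 22.8% of all genes. Myof, which encodes the membrane repair protein myoferlin, showed the smallest adjusted p of the list, at 60.8 ± 24.5 CPM in the controls, and 611 ± 20.7 and 605 ± 90.2 in sets A and B (n = 4 each), which are log2 fold changes of 3.33 and 3.32 (SE 0.21 each, edgeR adjusted p = 9.38e-10 and 1.18e-09). The receptor tyrosine kinase gene Axl went from 34.4 ± 7.91 to 110 ± 27.7 and 107 ± 15.4 CPM, and Ajuba, encoding a LIM protein that inhibits the LATS kinases, from 34.8 ± 5.82 to 70.6 ± 15.4 and 69.2 ± 9.42 CPM. Ptpn14, whose product holds YAP back, was also higher, with log2 fold changes of 1.43 and 1.22 (edgeR adjusted p = 0.0085 and 0.0230).

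Other targets on this list did not move with these. Lats2, a kinase gene that YAP induces as negative feedback, had log2 fold changes of 0.42 and -0.11 (edgeR adjusted p = 0.280 and 0.853), and Nuak2 had 0.18 and -0.35 (0.788 and 0.488). F3, encoding tissue factor, was too low to be tested. The genes that were lower were Igfbp3, an IGF binding protein (log2 fold change -1.88 and -3.44, edgeR adjusted p = 0.00809 and 6.25e-05), and Nt5e, the ectoenzyme CD73 (-1.06 and -1.15), named here because they were the 2 exceptions in direction and so chosen after their values were seen.

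Of the 19 Hippo kinases, scaffolds and YAP partners, all tested, 4 were higher and 0 lower in set A, and 3 were higher and 1 lower in set B, so that 21.1% were called in each set, close to the 22.3% and 22.8% of all genes. The partners Tead1 and Wwtr1 were higher in both. Tead1, the DNA-binding partner, was at 90.6 ± 15.9 CPM in the controls, and 179 ± 9.29 and 180 ± 48.3 in sets A and B (log2 fold change 0.98 and 0.99, SE 0.17, edgeR adjusted p = 2.77e-04 and 2.53e-04). Wwtr1, which encodes the YAP paralogue TAZ, was at 127 ± 39.1, 229 ± 33.1 and 198 ± 21.3 CPM (0.85 and 0.64, SE 0.18, edgeR adjusted p = 0.00162 and 0.0139). The upstream genes Lats1, Nf2 and Stk3 did not pass by edgeR. Lats1 had log2 fold changes of -0.18 and -0.05, Nf2, encoding merlin, 0.13 and 0.31, and the kinase gene Stk3 0.81 and 0.19 (edgeR adjusted p = 0.0853 in set A). Other upstream genes of the list did pass, and are named here after their values were seen. The kinase gene Taok3 was higher in both sets (0.57 and 0.78, edgeR adjusted p = 0.00640 and 4.76e-04), the scaffold gene Sav1 in set A (0.67, edgeR adjusted p = 0.0350), and the LATS cofactor gene Mob1b was lower in set B (-1.17, edgeR adjusted p = 0.0343).

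Of the other TGF-beta ligands, receptors and activators, 17 of 18 were tested, with 4 higher and 2 lower in set A (35.3% called) but 5 higher and 3 lower in set B (47.1%), and the median log2 fold change was 0.40 and -0.05. The lower genes, named after their values were seen, were those of the latent TGF-beta binding protein Ltbp1 (-1.19 and -1.62, edgeR adjusted p = 0.0212 and 0.00259) and the protease Furin (-0.56 and -0.51) in both sets, and Ltbp4 in set B (-1.52, edgeR adjusted p = 0.00132). While Tgfb1 did not pass, the ligand gene Tgfb3 was at 14.9 ± 4.93 CPM in the controls, and 72.2 ± 26.8 and 58.1 ± 22.3 in sets A and B (log2 fold change 2.28 and 1.97, SE 0.32, edgeR adjusted p = 2.12e-05 and 1.04e-04). Thbs1, encoding thrombospondin, an activator of latent TGF-beta, had log2 fold changes of 1.60 and 1.19 (edgeR adjusted p = 5.69e-04 and 0.00662). The integrin subunit gene Itgav had the smallest adjusted p of the list, with 1.12 and 0.87 (edgeR adjusted p = 4.07e-07 and 1.01e-05), whereas its partner Itgb6 had 0.40 and -0.04 (0.105 and 0.925). The co-receptor gene Tgfbr3 had -0.34 and -0.11, with edgeR adjusted p = 0.777 and 0.936.

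Of the SMADs and their inhibitors, 14 of 15 were tested, and 3 were higher and 0 lower in each set, or 21.4%, which was again close to the share of all genes. Smad3 rose from 199 ± 7.58 CPM in the controls to 488 ± 17.6 and 449 ± 41.2 in sets A and B, with log2 fold changes of 1.29 and 1.17 (SE 0.11, edgeR adjusted p = 3.30e-08 and 1.25e-07). Smad2, whose product is activated by the same receptors, had 0.23 and 0.30 (0.257 and 0.113), and Smad4, the common partner, -0.02 and 0.04 (0.944 and 0.894). Pmepa1, a TGF-beta induced gene whose product sequesters SMADs, was higher in both sets (1.41 and 1.08, edgeR adjusted p = 0.00103 and 0.00873). The inhibitor genes Smad6 and Skil had log2 fold changes between -0.08 and 0.14 and did not pass. Smurf1, another inhibitor gene of the list, named after its values were seen, was higher in both sets (1.22 and 1.05, edgeR adjusted p = 3.17e-04 and 0.00136).

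Of the genes known as TGF-beta targets, 16 of 19 were tested, of which 10 were higher and 1 lower in set A, against 9 higher and 0 lower in set B, with medians of 1.06 and 1.03. The shares called were 68.8% and 56.2%, beside 22.3% and 22.8% of all genes. Tgfbi was at 36.0 ± 6.10, 98.8 ± 43.0 and 83.6 ± 22.6 CPM, with log2 fold changes of 1.46 and 1.22 (SE 0.27, edgeR adjusted p = 3.91e-04 and 0.00202). Fn1, encoding fibronectin, passed in set A (1.01, edgeR adjusted p = 0.0258) and had 0.69 in set B (0.132), and the immediate target Klf10 had 0.91 and 0.85 on levels of 1.30 to 2.44 CPM (0.792 and 0.795).

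The collagen gene Col1a1 and the smooth muscle actin gene Acta2 were higher in both sets, with log2 fold changes of 1.97 and 1.79 for Col1a1 and 1.93 and 1.66 for Acta2. Both genes are also markers of fibroblasts and pericytes. The 6 such markers summed to 495 to 676 CPM in the controls, and 1250 to 3420 CPM and 1500 to 2820 CPM in sets A and B. Of the 4 that could be tested, the 2 that passed in each set were Col1a1 and Acta2, while the receptor genes Pdgfra and Pdgfrb did not pass, Lum was at 0 in all 12 kidneys and Dcn reached at most 1.26 CPM. The part of these cells in the values of the YAP and TGF-beta genes was not tested.

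**Figure D4:**
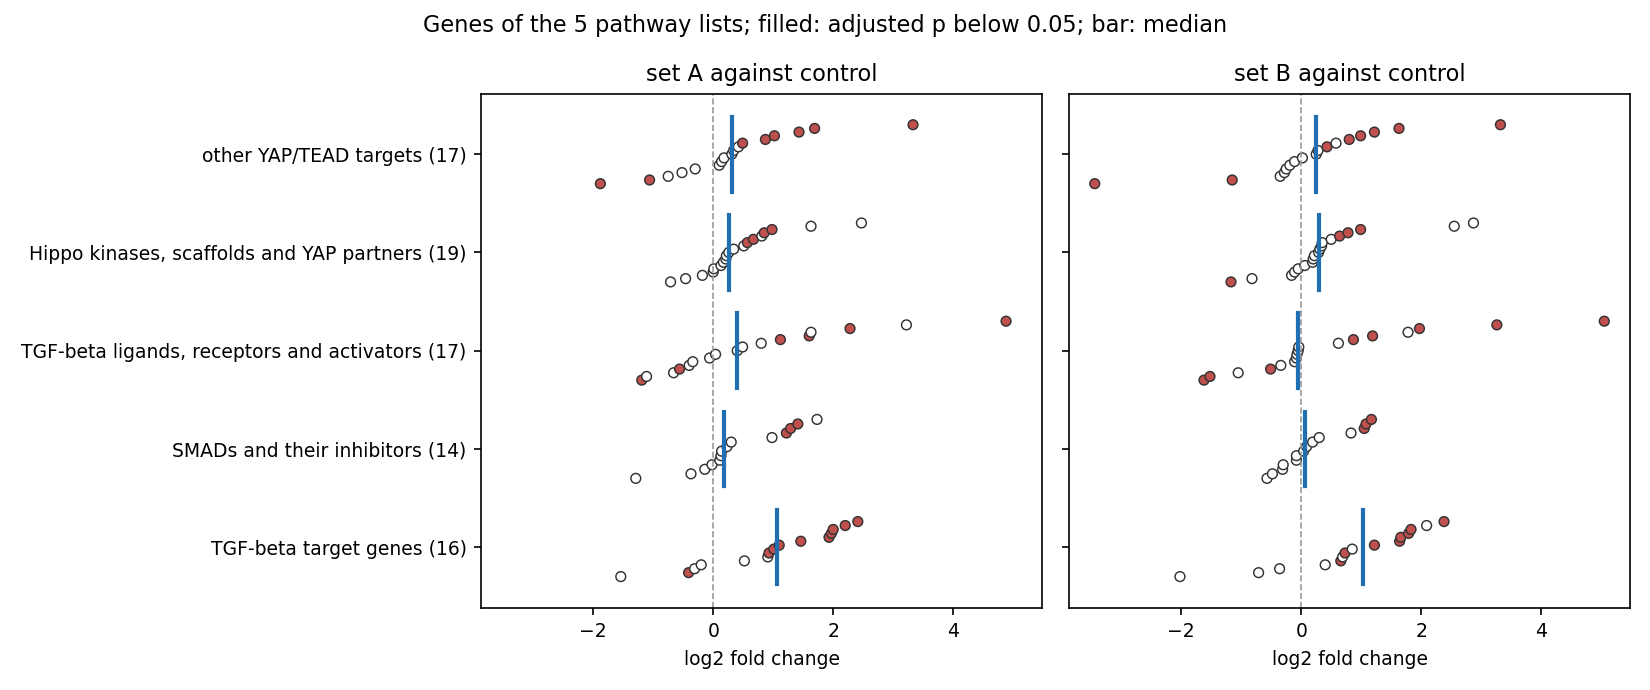
Log2 fold change by edgeR (horizontal axes) of the tested genes of the 5 lists, 17, 19, 17, 14 and 16 genes, for set A (left) and set B (right) relative to control. Points are genes, filled where the adjusted p was below 0.05, and the vertical bars are list medians (1.06 and 1.03 for TGF-beta targets, of which 1 gene enters the median but is not drawn).

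Markers of other cells moved as follows beside these results. The summed level of 6 leukocyte markers was 44.5 to 68.1 CPM in the controls, and 12.2 to 29.7 CPM and 13.2 to 35.6 CPM in sets A and B, where the macrophage receptor gene Csf1r was the one of 5 tested that passed, and it was lower, at means of 52.1, 13.5 and 10.5 CPM. It carried the difference of the sum, since Ptprc was at 2.96, 3.84 and 4.39 CPM and the list medians of the log2 fold change were 0.38 and 0.57. The 5 endothelial markers summed to 76.8 to 120 CPM in the controls, and 56.6 to 90.6 CPM and 64.6 to 111 CPM in sets A and B, and 0 of the 4 tested passed by edgeR in either set, with 2 and 0 in sets A and B at an unadjusted p below 0.05. The 4 podocyte markers summed to 118 to 135 CPM in the controls, and 134 to 252 CPM and 161 to 230 CPM in sets A and B, with 2 of 4 higher in each set. The 6 markers of the loop, distal tubule and collecting duct summed to 2450 to 2850, 1030 to 1370 and 946 to 1800 CPM, with 1 of 6 lower in set A and 2 of 6 in set B. Slc12a1, the loop transporter gene, made up most of this difference, with means of 1510, 180 and 256 CPM, while Umod (115, 128 and 128 CPM), Slc12a3 and Aqp2 did not pass. Platelet and skeletal muscle markers summed to at most 4.10 and 2.92 CPM in any kidney. The 3 red blood cell markers summed to 56.9 to 123, 25.5 to 48.5 and 14.7 to 31.7 CPM, with Hba-a1 listed at 0 in every kidney although a beta-globin row was counted. The part of these cells in the members' values was not tested.

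For each gene, the 2 genes with the most similar profile were sought among 8503 genes, by the root mean square (RMS) difference of log2 CPM over the 12 kidneys after centring each gene on its own mean. For Cyr61 these were Tpm4 and Col3a1 (RMS 0.22 and 0.24), for Ctgf Efemp2 and Fstl1 (0.24 and 0.28), and for Tgfbr1 Pkm and Iqgap1 (0.16 and 0.17). Tgif1 had Pdp1 and Bzw2 (0.22 and 0.25), Amotl2 had Hoxb8 and Arpc5 (0.21 and 0.23), Yap1 had Arfgap1 and Vps36 (0.18 and 0.19), and Smad7 had Rnf7 and Dhx30 (0.16 and 0.17). Tgfbr2 had Acot7 as its closest (0.20). The scattered genes had no close neighbour, with Jak3 at 0.86 for Ankrd1 and Psenen at 0.54 for Tgfb1. The 12 points share the 3 groups, so this measure takes in group differences and deviations within groups together.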

How the data were processed

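mRNA libraries were prepared by the authors with a stranded kit and read as single reads. Per the labels, FastQC, STAR, HTSeq and edgeR were used on mm10. Their versions, the annotation and the strand setting of the counting are not given in the sources used here. The deposited table holds whole-number counts per gene as made by the authors, not normalized. A column of the table was tied to each kidney by the sample description.

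The tests used edgeR 4.0.16 under R 4.3.3 (limma 3.58.1, DESeq2 1.42.0 for alternatives). Genes were kept with filterByExpr (minimum count 10, minimum total 15), scaled by TMM, and fitted over all 12 kidneys with a coefficient per group. Each comparison used the two-sided quasi-likelihood F-test with Benjamini-Hochberg adjustment over the 11664 genes tested and a threshold of 0.05. Standard errors were derived from the F statistic, and intervals are 95%. Single genes were compared by exact permutation of CPM. Floors of 3 counts cover counting error only. No kidneys agreed within sampling noise (the smallest chi-square per degree of freedom between replicates was 48.9). Loci and exon lengths were read from the GENCODE annotation of mm10, promoters from RefSeq. The script was tested on simulated data. Figures used Python 3.11.15 and matplotlib 3.10.9.

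The members and gene lists were chosen with earlier results of these data known. Named genes were the 10 members, genes of each list picked for their role, the gene with the smallest adjusted p of a list, the 2 nearest profiles per member among genes whose mean log2 CPM was 1 or more, and exceptions named as such. Alternatives were DESeq2, limma-trend, another scaling, no filter or a filter of 1 CPM in 4 kidneys, fits of 2 groups, a replicate block, raw totals and leaving out each kidney. A gene of the pathway lists that entered the counts and medians is not reported here by name.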

Additional observations from a re-analysis of the deposited data

How the results depend on the processing

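Over 19 alternatives per comparison, 555 of 570 values of single genes kept their direction and their side of the threshold, and all 30 exact tests did with raw totals. The number of the 10 genes that passed in set A was 5 to 7 when a kidney was left out, and 5 in set B and 0 between the sets under every alternative. Of the 83 pathway genes, 26 to 34 passed in set A when a kidney was left out, against 27 to 32 for set B. Ankrd1 also passed in set A by limma-trend (log2 fold change 2.92, adjusted p = 0.0380). Signs turned for small values that did not pass: Smad7 in set A without the filter (-0.01) and without control replicate 1 (-0.14) or set A replicates 1, 3 or 4 (-0.01, -0.04 and -0.01), Tgfb1 in set B without control replicate 3 (0.28) or set B replicate 4 (0.20), Ctgf between the sets without set A replicate 1 (0.03), and Tgfbr1 between the sets without set B replicate 4 (-0.03). With single kidneys left out these values ran from -0.14 to 0.10 for Smad7, from -0.38 to 0.28 for Tgfb1, from -0.43 to 0.03 for Ctgf and from -0.03 to 0.38 for Tgfbr1. The causes were not tested. Same-numbered kidneys did not deviate together (correlations of -0.055 to 0.045 over 12 pairs, 1 kidney closest to its own number), and with a replicate block 6, 5 and 0 of the 10 genes and 34, 33 and 0 pathway genes passed in the comparisons of set A and set B with control and of the sets. Ankrd1 had from 1 to 94 counts in the controls, and 4 kidneys a group limit the exact tests to p of at least 0.0286.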
